A study of Mus musculus and blank sample with 191 samples.

Results

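Chemokines and their receptors were examined in the mouse uterus, compartment by compartment and mouse by mouse. The genes were taken by name: every symbol of the deposited filtered table that reads Ccl, Cxcl, Cx3cl, Ccr, Cxcr, Cx3cr or Ackr followed by a digit, apart from Cxcl15. This gave 45 of 14881 genes. A further 12 symbols of the same form (Ccl20, Ccl24, Ccl25, Ccl26, Ccr4, Ccr6, Cxcl3, Cxcl9, Cxcl11, Cxcl13, Cxcr2 and Cxcr5) had a probe but were outside the filtered table, and were above the limit of quantification in 0 to 10.5% of regions.

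Chemokines are small secreted proteins that direct the migration of leukocytes through receptors coupled to G proteins. Some are made steadily by epithelium or stroma and position resident cells, while others, such as Ccl2, Cxcl1 and Cxcl10, are switched on in inflammation. The atypical receptors (Ackr) bind chemokines without the usual signalling and remove or store them. In the uterus, chemokines are known for recruiting macrophages, natural killer cells, neutrophils and eosinophils across the estrous cycle and in pregnancy.

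GeoMx spatial profiling counted probes, 1 for each member, in regions of fixed uterine sections that had been picked by morphology and by staining for pan-cytokeratin and smooth muscle actin. The PV mice carried 1 allele of the PV mutation of Thra (labelled PV/N; Thra1PV/+), a frame shift that makes thyroid hormone receptor alpha 1 a dominant-negative receptor in every cell that expresses it, and the wild-type (WT) mice were labelled N/N. All were females. The study describes matching its mice at metestrus, but no cycle stage is given for the single animals profiled here. On the first plate there were 31 epithelium and 21 stroma regions from 6 PV mice aged 2.4 to 6.3 months, and 29 epithelium regions from 8 and 14 stroma regions from 7 WT mice aged 4.0 to 9.0 months. The labels name 14 animals. The study describes fewer WT mice for the profiled sections, and more mice of each genotype for its tissue arrays. The labels were followed.

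Each mouse entered once per compartment, as the sum of its regions there, and levels are given as CPM, the count scaled to a fixed library size. The sums held 61691 to 13492532 counts in epithelium and 85336 to 5195249 in stroma. The lowest of each belong to PV2, which had 1 region per compartment and in which 1 count of epithelium was worth 15.0 CPM. The epithelial genes Krt8 and Epcam were higher in epithelium, and the stromal genes Col1a1 and Dcn higher in stroma, in 13 of 13 mice. In 3 of the 95 regions, all labelled epithelium, Col1a1 exceeded Krt8. They were 1 each from PV1, WT4 and WT8, which had 15, 3 and 2 epithelium regions, and they stay in the sums. On the second plate 46 of 94 regions went against their label by the same check, so the main results use the first plate only. Values that include the second plate are named as such. For Thra, the mutated gene, the log2 difference PV minus WT was 0.62 ± 0.28 (SE) in epithelium and 0.99 ± 0.28 in stroma, and for its target Klf9 it was -1.09 ± 0.21 and -1.31 ± 0.28, none past an adjusted p of 0.05 (edgeR). No source used here says whether its probe separates the mutant from the normal transcript, so Thra gives no check of the labels.

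Most members were low. A region's limit of quantification was set at the geometric mean of its 210 negative probes times their geometric SD squared. At least 50% of the 95 regions were above that limit for 14 of 45 members (31.1%), against 65.2% of all 14881 genes, and the median member was above it in 30.5% of regions, against 77.9% for the median gene. The 5 members detected most often were Ccl27a (94 regions), Cxcl16 (91), Cxcl14 (86), Cxcl17 (84) and Ackr3 (78). In 12 members, among them Ccr1, Ccr2, Ccr7, Ccr8, Ccr9, Ccr10 and Cxcr1, the summed count was under 3 times that of the negative probes in both compartments, so 8 of the 14 signalling receptors were read close to the background of the assay.

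The comparison of the compartments asked where each chemokine and receptor is expressed in the uterine wall. It divided the ligands: Cxcl17, Ccl28 and Cx3cl1 were higher in epithelium, while Cxcl12, the monocyte and eosinophil attractants Ccl8, Ccl11, Ccl2, Ccl7 and Ccl12, and all 14 signalling and 4 atypical receptors were higher in stroma. Of 45 members, 39 passed an adjusted p of 0.05 in edgeR's paired test over 13 mice, where 63.0% of all genes did. Of these, 3 were higher in epithelium, against 28.4% of all genes, and 36 (80.0%) were higher in stroma, against 34.6% of all genes. The median log2 difference, epithelium minus stroma, was -0.79 over the members and -0.05 over all genes. With upper-quartile scaling the median of all genes moved to -0.18, 40 members passed, against 65.1% of all genes, and 33.5% of all calls were higher in epithelium in place of 45.1%. With both plates 27 members passed, against 37.8% of all genes. Nothing in the labels ties the p-values to more than the spread between these mice.

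**Figure D1:**
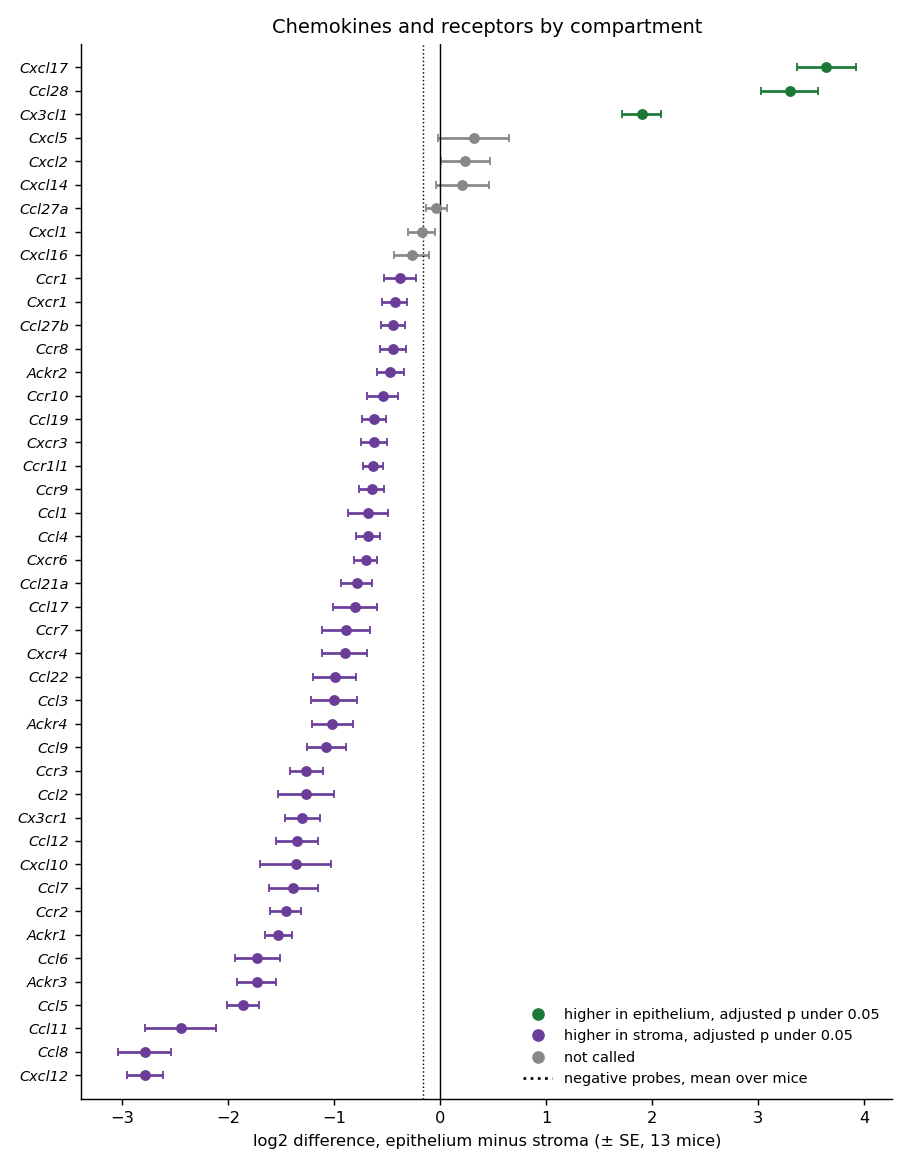
Log2 difference in level between epithelium and stroma (x axis, epithelium minus stroma, point and SE bar from the paired fit over 13 mice) for 44 members (y axis). Green points (3) are higher in epithelium and purple points (35) higher in stroma at an adjusted p under 0.05, grey points (6) did not pass, and the dotted line at -0.16 is the mean of the negative probes.

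Cxcl17, a mucosal chemokine of epithelial linings, had the largest difference towards epithelium. Its level ran from 58.8 to 1348 CPM in the epithelium of 14 mice (median 266), and from 6.60 to 74.3 CPM in the stroma of 13 mice (median 30.5). Both ends of the epithelial range were WT mice (WT1 and WT3), and the 2 compartments overlapped only between WT1 epithelium and PV1 stroma, which came from different mice. The fold was 12.5 (log2 3.64 ± 0.28 SE, adjusted p = 1.49e-09), with all 13 mice higher in epithelium, and all 60 epithelium regions were above the limit of quantification.

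Ccl28, a mucosal ligand that draws antibody-secreting plasma cells through Ccr10, showed the same division. Epithelium held 20.6 to 499 CPM (median 213) and stroma 6.60 to 36.1 CPM (median 14.8), a fold of 9.82 (log2 3.30 ± 0.27, adjusted p = 4.65e-09). The lowest epithelium was again WT1, the only one within the stromal range. Its receptor Ccr10 was higher in stroma by a small amount (log2 -0.54 ± 0.14) and was under 3 times the negative probes in both compartments.

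Cx3cl1 (fractalkine), which is made as a membrane-bound protein and shed by Adam10 and Adam17, held 23.0 to 142 CPM in epithelium (median 83.7) and 10.2 to 38.9 CPM in stroma (median 18.7). PV1 was highest in both compartments, and WT1 epithelium alone lay within the stromal range. The fold was 3.73 (log2 1.90 ± 0.18, adjusted p = 4.37e-08). Its receptor Cx3cr1, carried by macrophages and some natural killer cells, was higher in stroma in 13 of 13 mice (log2 -1.30 ± 0.17, adjusted p = 1.7e-06). Ligand and receptor thus differed in opposite directions across the epithelial border. On chromosome 8, Cx3cl1 (94772180 to 94782427, GRCm38.p6) lies between Ccl22 (94745684 to 94751388) and Ccl17 (94809380 to 94812038), ligands of Ccr4, and both of these were higher in stroma (log2 -0.99 ± 0.20 and -0.80 ± 0.21).

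The largest differences towards stroma were those of Cxcl12 and Ccl8. Cxcl12 is the ligand of Cxcr4 and Ackr3 made by fibroblasts, and it retains lymphocytes and precursors in tissues. Stroma held 52.6 to 267 CPM (median 147) and epithelium 11.5 to 44.3 CPM (median 17.2), so that no epithelium reached the lowest stroma. The fold was 6.90 (log2 -2.79 ± 0.17, adjusted p = 7.73e-11). Cxcr4 (-0.90 ± 0.21) and Ackr3 (-1.73 ± 0.18) were higher in stroma as well. Ackr3 was read at 42.6 to 448 CPM in stroma, with WT5 (448) and PV6 (158) above the other 11 mice, which held 85.6 CPM or less.

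Ccl8, a ligand that attracts monocytes, held 16.7 to 258 CPM in stroma (median 61.7) and 5.90 to 21.8 CPM in epithelium (median 14.5), with some overlap between different mice. The stromal levels of WT2 (255), WT3 (258), WT5 (257) and PV6 (172) stood above those of the other 9 mice, the highest of which was 86.7 CPM. The fold was 6.90 (log2 -2.79 ± 0.25, adjusted p = 1.41e-08), with stroma higher in 13 of 13 mice. Ccl11 (eotaxin), the ligand of Ccr3 on eosinophils, held 22.6 to 430 CPM in stroma (median 61.6) and 10.2 to 35.7 CPM in epithelium (median 17.5). PV6 (430), WT3 (352), PV1 (282), WT2 (217) and WT5 (173) were the high stromal samples, and WT8 was the 1 mouse with less in stroma than in epithelium. The epithelium sum of WT8 includes 1 region in which Col1a1 exceeded Krt8. Its fold was 5.44 (log2 -2.44 ± 0.33, adjusted p = 4.03e-06). Ccr3 differed in the same direction (-1.26 ± 0.15), above the limit of quantification in 17 of 35 stroma regions and in 0 of 60 epithelium regions.

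Ccl5, a ligand from T and natural killer cells, held 11.0 to 154 CPM in stroma (median 46.9) and 4.42 to 24.8 CPM in epithelium (median 14.3). WT5 (154 CPM) was the highest stroma, and PV5 (11.0 CPM) and WT2 (22.7 CPM) had stromal levels inside the epithelial range. Stroma was higher in 13 of 13 mice (fold 3.63, log2 -1.86 ± 0.15, adjusted p = 3.41e-09). Ccl4, a related ligand, differed by -0.68 ± 0.11 in the same direction.

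All signalling receptors were higher in stroma in the paired test over both genotypes, though not in each genotype alone. Ccr1 passed in neither, and without PV1 it was at -0.26 ± 0.16 (edgeR adjusted p = 0.177). Ccr10 did not pass in WT mice, and Ccr7, Ccr8, Cxcr1 and Cxcr4 did not in PV mice. Ccr2, which brings monocytes to Ccl2, Ccl7, Ccl8 and Ccl12, differed by -1.45 ± 0.15 but was above the limit in 1 of 60 epithelium and 10 of 35 stroma regions. Ccr7, the receptor of Ccl19 and Ccl21a on dendritic cells and lymphocytes, differed by -0.89 ± 0.23, and its ligands by -0.62 ± 0.11 and -0.79 ± 0.15. Cxcr6 (-0.70 ± 0.11), the receptor of the membrane-bound Cxcl16, was higher in stroma, whereas Cxcl16 itself did not pass (-0.27 ± 0.16, adjusted p = 0.161).

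The 4 atypical receptors were all higher in stroma in the test over both genotypes, though Ackr2 did not pass in WT mice alone. Ackr1, which is carried by the endothelium of venules and moves chemokines across it, differed by -1.52 ± 0.13 and was above the limit in 25 of 35 stroma and 4 of 60 epithelium regions. Ackr3 is given above, Ackr4 differed by -1.01 ± 0.20 and Ackr2 by -0.47 ± 0.13. Levels of Ackr2 and Ackr4 were under 3 times the negative probes in both compartments.

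**Figure D2:**
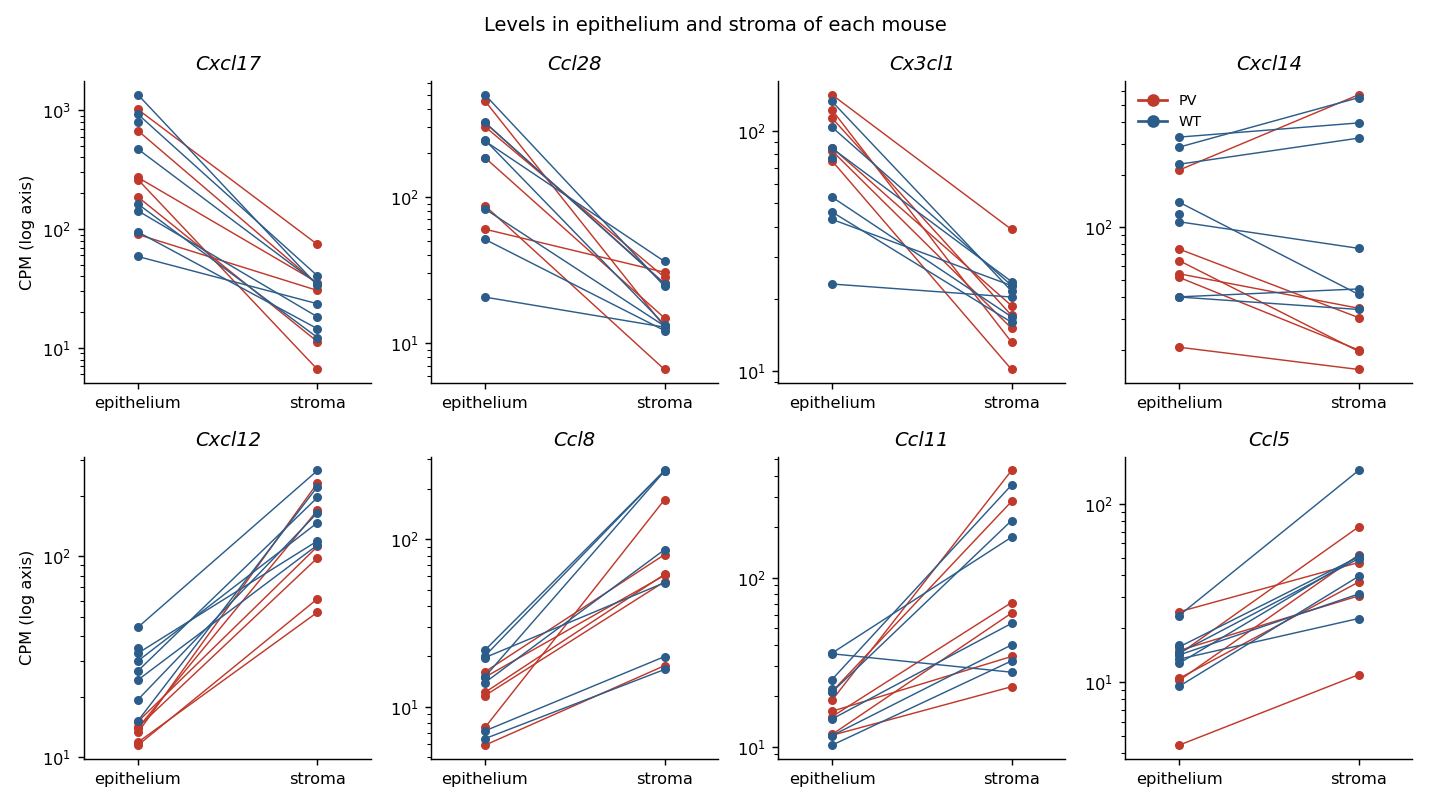
Level in CPM (log axis) in the epithelium and stroma of each mouse for 8 members, with a line joining the compartments of a mouse (red PV, blue WT; WT6 has epithelium only). Lines fall towards stroma for Cxcl17, Ccl28 and Cx3cl1 in all 13 mice, rise for Cxcl12, Ccl8 and Ccl5 in all 13, and run both ways for Cxcl14.

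For 6 members the compartments did not differ past the threshold. Ccl27a was nearly level, at 30.0 to 72.2 CPM in epithelium and 38.7 to 78.1 CPM in stroma (log2 -0.04 ± 0.10). Cxcl14, an epithelial and stromal chemokine that responds to hormones, was the opposite: its stromal level was 572 CPM in PV4, 551 in WT8, 395 in WT4 and 323 in WT7, and 15.4 to 75.8 CPM in the other 9 mice. The same 4 mice had the highest epithelial levels, WT4 328, WT8 287, WT7 229 and PV4 212 CPM, and the other 10 held 20.6 to 139 CPM. The between-mouse range of Cxcl14 thus exceeded its compartment difference (log2 0.21 ± 0.25, adjusted p = 0.484), and each genotype had mice at both levels in stroma. Cxcl1, Cxcl2 and Cxcl5, the neutrophil attractants, are described with genotype.

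Small differences need the background beside them. The negative probes themselves were lower in epithelium in 10 of 13 mice, by a log2 mean of -0.16 ± 0.31 (SD). The 12 members under 3 times the negative probes in both compartments were all called higher in stroma, at a median of -0.59, and 11 of them were still called after the negative-probe value was subtracted from every gene. Of the other 33 members, 3 were higher in epithelium, 24 higher in stroma and 6 did not pass.

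The division was seen in each genotype on its own. In WT mice 3 members were higher in epithelium and 28 in stroma, against 22.1% and 26.8% of all genes. Ccl2 and Ackr2 were among those that did not pass in WT mice. Over both genotypes the log2 difference of Ccl2 was -1.26 with PV1 and -0.90 ± 0.17 without it. In PV mice 4 were higher in epithelium and 31 in stroma, against 22.7% and 26.7% of all genes. The fourth in PV epithelium was Cxcl2 (log2 0.89 ± 0.29, adjusted p = 0.0161, against -0.26 ± 0.25 in WT), and PV1 supplied its high value, as given below.

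Cell type markers moved with these differences. Of 9 macrophage markers kept in the table, 8 were higher in stroma (median log2 -2.41), and their summed level was 106 to 452 CPM in epithelium and 244 to 3075 CPM in stroma. All 5 general leukocyte markers, all 9 natural killer cell markers and all 8 blood endothelial markers kept were higher in stroma too. Of all genes, 34.6% were higher in stroma and 28.4% higher in epithelium. All 12 columnar epithelium markers were higher in epithelium, and their summed level was 2568 to 10039 CPM there and 214 to 747 CPM in stroma. Fewer cells of a type and less RNA per cell cannot be told apart in such regions, and the part of cell number in the chemokine differences was not tested.

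Other genes of the chemokine system, counted as lists, gave the following. Of 8 chemokines and receptors kept that go by other names, 6 were higher in stroma, led by Rarres2 (chemerin, -3.08 ± 0.12) with its receptor Cmklr1 (-1.68 ± 0.17) and by Xcl1 (-1.63 ± 0.19), a ligand from natural killer and T cells. Cxcl15 was higher in epithelium (1.71 ± 0.37). All 5 proteases that shed or trim chemokines passed: Dpp4, which inactivates Cxcl12, was higher in epithelium (1.99 ± 0.21), as were Adam10 (0.69 ± 0.11) and Adam17 (0.52 ± 0.11), and Mmp9 and Mmp14 were higher in stroma. Of 17 signalling genes downstream of the receptors, 2 were higher in epithelium and 9 in stroma, including the leukocyte genes Dock2 (-1.93 ± 0.12), Rac2 (-1.89 ± 0.15) and Vav1 (-1.38 ± 0.13). Of 13 genes listed with the induction of chemokines, 2 were higher in epithelium and 5 in stroma. Among the 13 is Nfkbia, an inhibitor of NF-kB. Over all genes 63.0% passed, with 28.4% higher in epithelium and 34.6% higher in stroma.

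The comparison of genotypes asked whether the mutant receptor changes chemokine expression. No member passed an adjusted p of 0.05 in edgeR in either compartment, where 0.0% of all genes did. At an unadjusted p under 0.05 there were 7 of 45 members in epithelium, against 8.22% of all genes, and 8 in stroma, against 3.52%. In epithelium 4 (Ccl2, Cxcl1, Cxcl2 and Cxcl5) were on the higher side in PV, against 4.42% of all genes, and 3 (Ccl1, Ccl27b and Cxcl12) on the lower side, against 3.8%. In stroma all 8 (Ccl2, Ccl7, Ccl12, Ccl17, Ccl22, Cxcl1, Cxcl10 and Cxcl16) were on the higher side, against 2.12% of all genes, and 0 on the lower, against 1.4%. The filtered table kept genes detected in a minimum share of regions, so a member could enter it mainly through 1 mouse, PV1. Epithelium regions above the limit of quantification were 9 of 15 in PV1 and 1 of 45 elsewhere for Cxcl2, and 11 and 2 for Cxcl5. Stroma regions were 6 of 10 and 2 of 25 for Ccl17. For such members the excess over all genes is not independent of that filter. DESeq2 called 28 genes in epithelium (0.234%), Cxcl12 the 1 member among them, and 2 in stroma (0.0135%), neither a member, and an exact permutation test over mice adjusted over all genes called 0 in either. Its unadjusted p was under 0.05 for 2 members in epithelium (Ccl27b and Cxcl12), against 6.01% of all genes, and for 1 in stroma (Cxcl16), against 3.5%. The median log2 difference PV minus WT was -0.09 over the members and -0.01 over all genes in epithelium, and 0.12 and 0.01 in stroma.

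The largest differences towards PV, those of Ccl2, Cxcl10, Cxcl1, Cxcl2, Cxcl5 and Ccl7, rested wholly or mostly on 1 mouse, PV1, aged 4.2 months. Ccl2, the main attractant of monocytes, was at 1151 CPM in PV1 stroma. It was at 20.3, 27.0, 16.1, 17.6 and 33.4 CPM in PV2 to PV6, and at 9.96 to 31.0 CPM in 7 WT mice (median 17.7). Without PV1, 1 PV mouse (PV6) was above the WT range and the others were inside it. The log2 difference was 3.65 ± 0.90 (unadjusted p = 6.4e-04, adjusted p = 0.683, edgeR) with PV1 and 0.33 ± 0.32 (adjusted p = 1.0) without it. In epithelium PV1 held 106 CPM, the other PV mice 5.54 to 16.2 CPM and the WT mice 7.64 to 16.1 CPM, and the log2 difference was 1.47 ± 0.54 with PV1 and -0.39 ± 0.31 without it.

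Cxcl10, the interferon-induced ligand of Cxcr3 on T and natural killer cells, followed. PV1 stroma held 640 CPM. The other PV mice held 10.2, 12.8, 66.2, 11.0 and 23.7 CPM, and the WT mice 5.05 to 26.0 CPM (median 13.9). PV4 was the second mouse above the WT range, and 4 PV mice were inside it. The log2 difference was 3.24 ± 0.77 (adjusted p = 0.616, edgeR) and 1.06 ± 0.38 (unadjusted p = 0.0116, adjusted p = 1.0) without PV1. In epithelium PV1 held 53.8 CPM, the other PV mice 6.47 to 15.0 CPM and the WT mice 7.31 to 17.2 CPM, and without PV1 the log2 difference there was -0.61 ± 0.27. Cxcr3 in PV1 (11.0 and 19.5 CPM) was inside the range of the other mice in both compartments.

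The neutrophil attractants Cxcl1, Cxcl2 and Cxcl5, ligands of Cxcr2, were high in PV1 epithelium. Cxcl1 held 131 CPM in PV1, 15.0, 18.3, 10.7, 10.3 and 7.52 CPM in PV2 to PV6, and 9.96 to 17.4 CPM in WT mice. Cxcl2 held 89.7 CPM in PV1, 15.0, 18.3, 6.12, 11.8 and 11.8 CPM in the other PV mice, and 5.59 to 15.0 CPM in WT mice. Only PV3, at 18.3 CPM in each case, was above the WT range besides PV1. The log2 differences were 1.51 ± 0.52 for Cxcl1 and 1.70 ± 0.49 for Cxcl2 (adjusted p = 0.515 and 0.395, edgeR), and without PV1 they were -0.26 ± 0.24 and 0.24 ± 0.32. Cxcl5 held 167 CPM in PV1 and 5.93 to 15.0 CPM in the other PV mice, and WT3 (42.2 CPM) was the next highest mouse. In stroma Cxcl1 was at 117 CPM in PV1 and 71.1 CPM in PV2, the latter from 7 counts, against 9.43 to 18.7 CPM in WT mice, and its log2 difference of 1.47 ± 0.49 (adjusted p = 1.0) became 0.08 ± 0.35 without PV1.

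The level in PV1 was not the same for all neighbours of a gene cluster. On chromosome 11 the genes Ccl2, Ccl7, Ccl11, Ccl12, Ccl8 and Ccl1 lie between 82035577 and 82179812 (GRCm38.p6). In PV1 stroma Ccl7 (236 CPM, at most 45.2 in any other mouse) and Ccl12 (122 CPM, at most 48.3) were the highest of 13 mice together with Ccl2. Ccl11 (282 CPM) was below PV6 and WT3, and Ccl8 (61.7 CPM) and Ccl1 (12.3 CPM) were in the middle of the range. The Ccr4 ligands Ccl22 (108 CPM, at most 32.1 elsewhere) and Ccl17 (79.6 CPM, at most 25.6) were also highest in PV1 stroma. Without PV1 the log2 differences in stroma were -0.26 ± 0.36 for Ccl7, 0.19 ± 0.38 for Ccl12, -0.13 ± 0.34 for Ccl22 and -0.02 ± 0.29 for Ccl17.

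**Figure D3:**
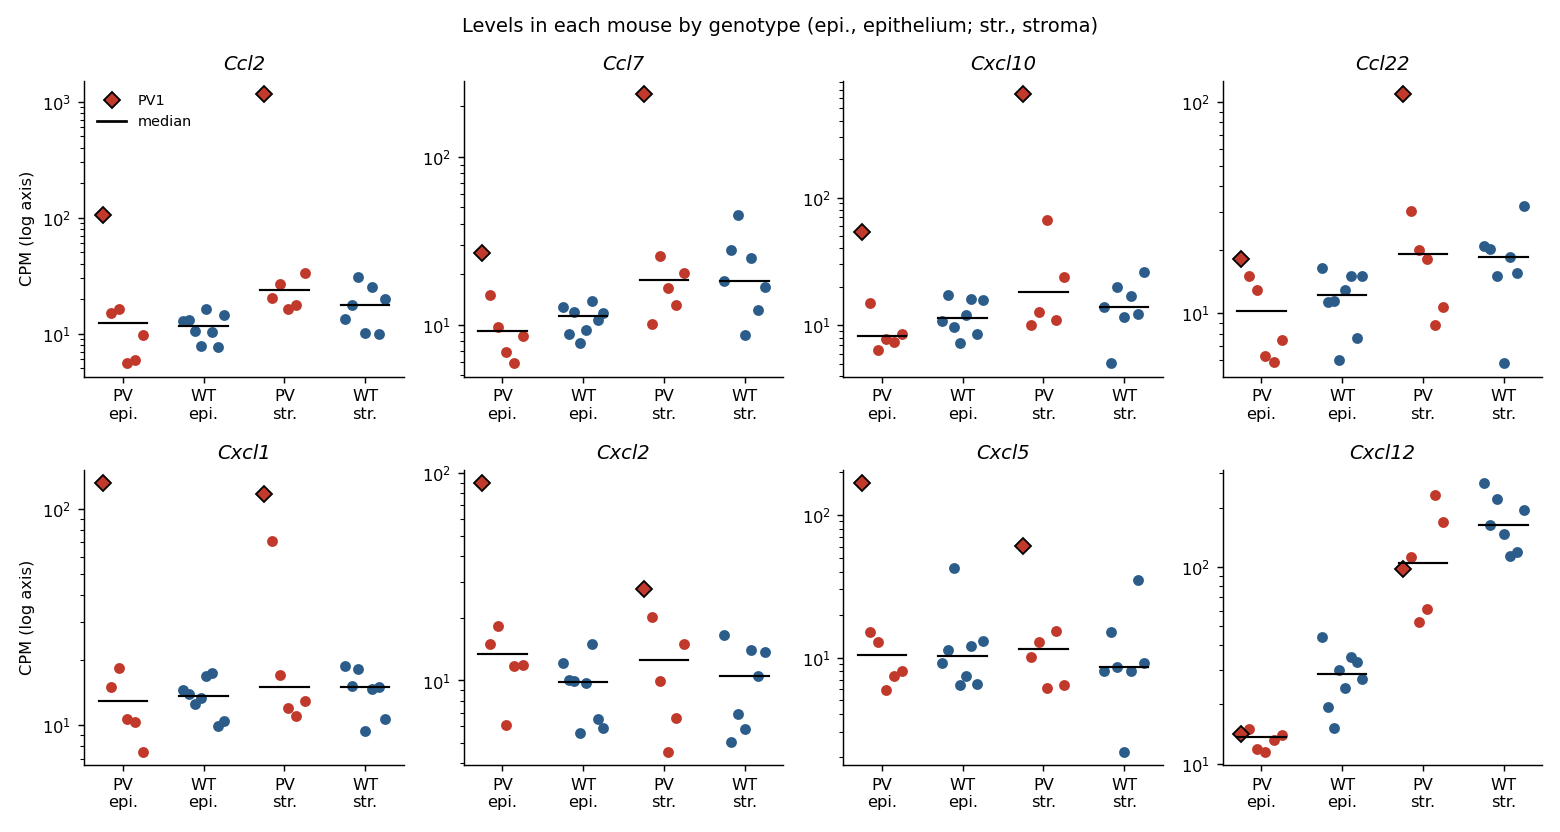
Level in CPM (log axis) in each mouse by genotype and compartment for 8 members (red PV, blue WT, diamond PV1, line the group median). The diamond lies far above all other mice of its compartment for Ccl2, Ccl7 and Cxcl10 in stroma and for Ccl2, Cxcl1, Cxcl2 and Cxcl5 in epithelium, while for Cxcl12 it lies among the other PV mice.

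High levels in PV1 were spread over all or most of its regions for Ccl2, and over all its stroma regions for Ccl7. For other members fewer PV1 regions stood above all others. All 10 of its stroma regions on the first plate, at 239 to 2658 CPM, were above each of the 25 stroma regions of other mice for Ccl2 (at most 50.9 CPM). For Ccl7 the same held for 10 of 10, for Cxcl10 for 7 of 10, for Ccl12 for 6 of 10, for Ccl22 for 5 of 10, and for Ccl17 for 4 of 10. Over the 10 regions Ccl22 ran from 5.40 to 418 CPM and Ccl17 from 8.99 to 262 CPM. In epithelium 13 of 15 PV1 regions were above all 45 others for Ccl2, 11 for Cxcl1, 9 for Cxcl2 and 6 for Cxcl5. On the second plate, whose labels are in doubt, 6 of 6 epithelium and 3 of 3 stroma regions of PV1 were above each of the 51 and 34 regions of other mice for Ccl2. The counts there were 5 of 6 and 2 of 3 for Cxcl10, 4 of 6 and 2 of 3 for Ccl7, 2 of 6 and 0 of 3 for each of Cxcl1, Cxcl2, Cxcl5 and Ccl22, and 0 of 6 and 1 of 3 for Ccl12. Among the symbols outside the filtered table, Cxcl3, a further Cxcr2 ligand, was above the limit of quantification in 8 of 15 PV1 epithelium regions and in 0 of 45 others.

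Other values moved with PV1. Of the 13 genes kept of the induction list, PV1 was the highest of all mice for 10 in epithelium and 9 in stroma. This list includes Nfkbia, an inhibitor of NF-kB. Among PV mice alone PV1 was the highest for 11.6% of all genes in epithelium and 11.9% in stroma. Its share among all mice cannot be larger. Il1b was at 182 CPM in PV1 stroma (at most 32.7 in other mice), Relb at 81.3 (at most 25.6), Nfkbia at 218 (at most 64.6) and Irf1 at 317 (at most 154), and in epithelium Il1a was at 113 CPM (at most 23.9) and Nfkbia at 369 (at most 150). Il6 and Il33 in PV1 were below the highest other mouse in both compartments (Il33 in epithelium 18.1 against 126 CPM), and so was Rela in stroma (53.1 against 334 CPM). Summed over the list, 5 neutrophil markers kept of 8 were at 360 CPM in PV1 stroma, 121 to 271 in the other PV mice and 150 to 271 in WT mice. B and plasma cell markers (7 kept of 9) were at 2336 CPM in PV1 stroma, 323 to 1709 in the other PV mice and 211 to 641 in WT mice. Macrophage markers (1410 CPM) and general leukocyte markers (688 CPM) in PV1 stroma were inside the range of the other mice, 244 to 3075 and 152 to 762 CPM. The part of these cells and of the genes of the induction list in the chemokine levels of PV1 was not tested. Over all 45 members PV1 was the highest PV mouse for 11 in epithelium, against 11.6% of all genes, and for 17 in stroma, against 11.9%. In epithelium PV3 was highest for 16 (17.0% of all genes) and PV2 for 14 (25.0%), and in stroma PV2 for 12 (27.9%).

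The start of Cxcl1, Cxcl2 and Cxcl10, 3 members that were high in the same mouse, is printed. Of the other members high in PV1, Ccl2, Ccl7 and Cxcl5 have no promoter entry. Ccl12, Ccl17 and Ccl22 have an entry and are not printed. The sequences are the 250 bases before the transcription start, from RefSeq on GRCm38.p6, 5′ to 3′ on the strand of the gene. Capitals mark matches on either strand to GGGNNNNNCC, the frame of a site for NF-kB, or to GAAANNGAAA, the core of an interferon-stimulated response element, and matches of the frame that overlap run together.
Cxcl1, chr5:90890995-90891244, plus strand: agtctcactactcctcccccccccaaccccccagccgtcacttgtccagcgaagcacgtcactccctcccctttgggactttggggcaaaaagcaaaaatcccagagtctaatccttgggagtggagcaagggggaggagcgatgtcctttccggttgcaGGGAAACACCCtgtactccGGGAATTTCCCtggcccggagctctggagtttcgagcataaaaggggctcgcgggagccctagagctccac
Cxcl2, chr5:90903649-90903898, plus strand: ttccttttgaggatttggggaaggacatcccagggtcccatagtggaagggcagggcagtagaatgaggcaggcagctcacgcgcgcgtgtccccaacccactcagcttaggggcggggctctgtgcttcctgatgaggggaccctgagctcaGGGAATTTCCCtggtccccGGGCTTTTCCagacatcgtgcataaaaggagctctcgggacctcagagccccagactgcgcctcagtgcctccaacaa
Cxcl10, chr5:92348890-92349139, minus strand: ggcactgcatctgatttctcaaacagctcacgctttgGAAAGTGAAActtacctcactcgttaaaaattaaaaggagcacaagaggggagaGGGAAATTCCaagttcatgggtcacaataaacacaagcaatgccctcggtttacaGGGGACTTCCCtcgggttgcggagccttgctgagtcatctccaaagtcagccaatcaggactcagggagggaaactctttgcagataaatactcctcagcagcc

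The frame is common: it was in 50.4% of 27025 promoters of 300 bases, and in 21 of the 34 members with an entry. Within it, Cxcl1, Cxcl2 and Cxcl10 shared the word GGGAAATTCC on 1 strand or the other, a word singled out after the sequences were seen, which was in 29 (0.107%) of all promoters. Ccl12, Ccl17 and Ccl22, also highest in PV1 stroma, did not hold this word, and of them only Ccl22 held the frame. The interferon-response core was in 3.49% of promoters and, among members, in Cxcl10, Ccl19 and Cxcl14. A match is a run of letters and not a measured site.

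**Figure D4:**
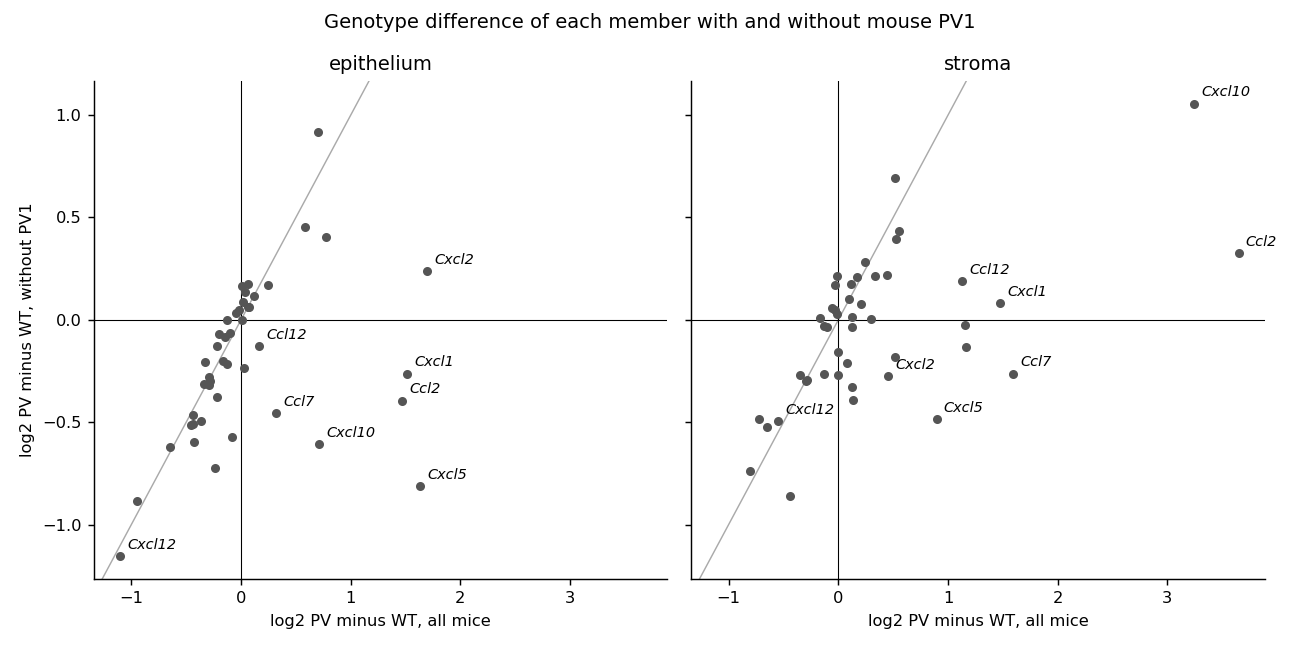
Log2 difference PV minus WT of each of the 45 members with all mice (x axis) and without PV1 (y axis), in epithelium (left) and stroma (right), where the grey diagonal marks equal values. Ccl2, Cxcl1, Cxcl2, Cxcl5, Ccl7 and Cxcl10 lie far below the diagonal in 1 compartment or both, and Cxcl12 in epithelium (-1.10 and -1.15) lies on it.

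Of the members with an unadjusted p under 0.05 in epithelium, Cxcl12 had the lowest, and its difference was as large without PV1. Its level was 14.1, 15.0, 11.9, 11.5, 13.3 and 14.0 CPM in PV1 to PV6, and 44.3, 19.3, 15.2, 30.1, 24.2, 34.7, 32.9 and 26.9 CPM in WT1 to WT8. Every PV mouse was below every WT mouse, though PV2 (15.0 CPM, from 1 count) and WT3 (15.2 CPM) nearly met. These levels are low: Cxcl12 was above the limit of quantification in 10 of 31 PV and 20 of 29 WT epithelium regions. Negative probes were at 4.41 to 15.7 CPM in PV epithelium (median 5.32, highest in PV2) and 4.59 to 7.86 CPM in WT epithelium. PV2 was thus read at the background, and the other PV mice not far above it. Cxcl12 was the 1 member of 45 without overlap, where 0.0672% of all genes had PV below WT and the same share had PV above WT without overlap. Without PV1 it was still the 1 member, and the shares of all genes were 0.155% below and 0.141% above. In stroma 0 members were without overlap, with 0.0269% of all genes in each direction, and 0 without PV1, with 0.0874% below and 0.0739% above. The log2 difference was -1.10 ± 0.23 (unadjusted p = 1.3e-04, adjusted p = 0.138, edgeR) and -1.15 ± 0.26 (adjusted p = 0.200) without PV1. DESeq2 gave an adjusted p of 0.0272, age as a covariate in edgeR -1.29 ± 0.22 with an adjusted p of 0.0402 (0.0672% of all genes called), and the exact permutation test p = 9.99e-04 over 3003 divisions of the mice (two-sided, adjusted p = 0.413 over all genes). With the regions of both plates together the log2 difference was 0.01 ± 0.31. In stroma Cxcl12 was at 52.6 to 231 CPM in PV and 114 to 267 CPM in WT mice, a log2 difference of -0.55 ± 0.32 (adjusted p = 1.0). The fibroblast gene Dcn was on the lower side in PV epithelium too (log2 -0.94 ± 0.22, adjusted p = 0.322), and 10 fibroblast markers summed to 571 to 1873 CPM in PV epithelium and 787 to 2371 CPM in WT epithelium, so their ranges overlapped. The median log2 difference of these 10 markers was -0.45, against -0.01 over all genes, and Dcn itself did not overlap between genotypes (at most 104 CPM in PV and at least 115 CPM in WT). The epithelium sums of PV1, WT4 and WT8 each include 1 region in which Col1a1 exceeded Krt8. The part of stromal RNA in the epithelium regions in the level of Cxcl12 was not tested.

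Neither receptor of Cxcl12 passed in epithelium. Cxcr4 in epithelium was at 12.9 to 165 CPM in PV mice, the highest being PV2, and at 12.9 to 26.7 CPM in WT mice, a log2 difference of 0.70 ± 0.38 (adjusted p = 0.643, edgeR), and without PV1 it was 0.92 ± 0.38 (unadjusted p = 0.0266, adjusted p = 0.530). Ackr3 held 17.7 to 45.1 CPM in PV and 16.2 to 53.3 CPM in WT epithelium. Ccl27b, a close relative of Ccl27a, was at 5.90 to 15.0 CPM in PV and 9.24 to 17.4 CPM in WT epithelium, overlapping, with a log2 difference of -0.46 with PV1 and -0.51 ± 0.21 without it (edgeR adjusted p = 0.528). Cxcl16 in stroma was at 67.8 to 127 CPM in PV mice (median 91.2) and 45.0 to 105 CPM in WT mice (median 56.8), with overlapping groups, a log2 difference of 0.53 ± 0.23 and an exact permutation p of 0.0431 over 1716 divisions, which was 0.0859 without PV1.

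A last comparison asked whether the compartment difference itself depended on genotype. No member and 0.0% of all genes passed an adjusted p of 0.05 in edgeR, and 8 members, against 7.16% of all genes, had an unadjusted p under 0.05. DESeq2 called 1 gene (0.00672%), which was no member. A limma fit over the single regions, with mice as random blocks, called Cxcl10 and Ccl2 and 0.531% of all genes. The members with the lowest p were Cxcl10, whose compartment difference was -2.68 ± 0.35 in PV and -0.49 ± 0.29 in WT (difference -2.19 ± 0.44, adjusted p = 0.579), and Ccl2, at -2.16 ± 0.32 and -0.66 ± 0.27 (difference -1.51 ± 0.41, adjusted p = 0.579). Without PV1 the differences were -1.56 ± 0.46 and -0.73 ± 0.32.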

How the data were processed

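GeoMx mouse whole-transcriptome libraries were deposited as tables of all regions. The authors' pipeline collapsed reads to unique probe molecules, and the values deposited per target were handled like estimated counts, since 3 of 19962 targets are geometric means of 2 probes (sums were rounded for testing). In that table zeros had been replaced by 1 (1.80% of member values). The deposited filtered table holds 14881 genes as signal scaled by the authors to the upper quartile, and it served to choose genes and as an alternative. Counts of first-plate regions were summed per mouse and compartment and tested with edgeR 4.0.16 (quasi-likelihood, TMM scaling) in R 4.3.3, Benjamini-Hochberg adjusted over the whole filtered table, at a threshold of 0.05. The compartment test had the mouse as a block: deviations of the 2 compartments of a mouse correlated by 0.160 to 0.526 in 13 of 13 mice. Genotypes were tested within compartments, and as an interaction. CPM are TMM-scaled. Alternatives were DESeq2 1.42.0, limma 3.58.1, exact permutation of mice, upper-quartile scaling, no gene filter, subtraction of negative probes, both plates, age as a covariate and leaving out each mouse. Members given mouse by mouse were the 4 called with the largest fold in each direction between compartments, the 3 with the lowest unadjusted p between genotypes in each compartment, the 2 with the lowest in the interaction, and ligands with their receptors. Cxcl14, Ccl27a, the PV1 region counts and the printed promoters were added after values were seen. The values of 1 member, which stays in the counts, are not reported here. Members and lists were chosen with earlier results of these data known. The tests were tried on simulated counts.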

Additional observations from a re-analysis of the deposited data

Results flagged for a closer look

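In 3 of the 44 groups of 6 to 8 mice tested for the named members, 1 mouse stood apart from its group by Dixon's criterion, and it was PV1 each time. The gap to the next mouse, as a share of the group's range on the log2 scale, was 0.652 for Ccl2 in PV epithelium, 0.834 for Ccl2 in PV stroma and 0.699 for Cxcl1 in PV epithelium. Over all 45 members 20 of 180 groups stood apart in this way (11.1%), where chance gives about 1 in 20, and the mouse was PV1 in 5 of these and PV2 in 3. The named members were chosen in part by genotype p-values to which PV1 contributes, so its share among them is not independent of that choice.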

How the results depend on the processing

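The number of members called between compartments was 39, and 27 with both plates (3 higher in epithelium, 24 in stroma), 38 without the replicate block, and 38 to 41 under the other settings. Leaving out 1 mouse at a time gave 38 to 39 members, of which 3 to 4 were higher in epithelium and 35 to 36 in stroma. In the genotype comparison of epithelium 1 member was called by DESeq2 and 1 with age as a covariate, Cxcl12 in both, and in the interaction 2 (Cxcl10 and Ccl2) by limma on single regions with random mouse blocks. Leaving out 1 mouse gave 0 in all 3. Differences changed sign for Cxcl12 in epithelium with both plates (0.012 against -1.10) and for Cxcl1 in epithelium without PV1 (-0.26 against 1.51, and 1.45 to 1.76 without any other mouse), and the cause of the former was not tested. Low counts limit most receptors, and PV2, with 1 region per compartment, limits the PV groups.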
